A study of Mus musculus with 8 samples.

Results

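The semaphorins, plexins and neuropilins are a family of guidance ligands and their receptors. The 31 genes described here were every row of the deposited gene table, out of 53801, whose symbol begins with Sema and a class digit, begins with Plxn, or is Nrp1 or Nrp2. They comprise 20 semaphorins, 9 plexins and 2 neuropilins, and were chosen by name and not by level. Opposite-strand transcripts of Plxna4, 3 in number and with 0, 2 and 8 counts in all libraries together, were left out. Of the 31 genes, 29 passed the filter on low counts, and Sema4f and Sema5b did not.

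RNA came from small intestinal stromal cells of LTβRYFP mice, sorted by flow cytometry as negative for CD45, which marks blood cells, and CD31, which marks endothelium. The sort then divided them into YFP+ cells (4 libraries) and YFP- cells (4 libraries), and both fractions carry the same allele, named after the lymphotoxin beta receptor. The sources used here give neither the construction of the allele nor the mice's age and sex, nor whether a library came from 1 animal or several. P-values therefore measure the spread between these libraries, which may be technical. The titles of all 8 samples contradict their descriptions and genotypes on the YFP sign. The description and genotype were followed, and with the titles every direction would be the reverse.

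Semaphorins bind plexins, whose cytoplasmic part acts on small GTPases and so on the cytoskeleton and adhesion. Class 3 semaphorins are secreted and mostly need a neuropilin as co-receptor, classes 4, 5 and 6 span the membrane, and Sema7a is held by a GPI anchor. Neuropilins also bind growth factors of the VEGF family. In the gut the family is known for guiding axons and vessels and for signals between epithelium, nerves, immune cells and stroma.

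Libraries held 23404630 to 29829232 counts in YFP+ and 23272858 to 28688906 in YFP-. Ltbr itself averaged 56.6 ± 1.27 CPM (counts per 1e6 counts of the TMM-scaled library) in YFP+ libraries and 52.4 ± 6.85 in YFP- libraries (SD, n = 4 each), or 0.12 higher on the log2 scale, at an edgeR adjusted p of 0.396, so it could not show which label was right. The 6 defining fibroblast genes together reached 33838 to 37646 CPM in YFP+ and 39137 to 46222 in YFP-, whereas Ptprc, the gene of CD45, stayed at 6.22 CPM or below in YFP+ and 5.66 or below in YFP-. Pecam1, the gene of CD31, stood at 2.63 to 7.07 CPM in YFP+ and 5.11 to 11.8 in YFP-. Every comparison is YFP+ over YFP-, with libraries of equal number taken as pairs, by edgeR's quasi-likelihood test with adjustment over 16354 genes and a threshold of 0.05.

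Both fractions expressed a broad set of the family, led by receptors. Per length (TPM, counts per exon length scaled to 1e6 per library), Nrp1, a co-receptor for class 3 semaphorins and VEGF, was the highest member, at 59.3 ± 2.16 TPM in YFP+ libraries and 53.5 ± 8.17 in YFP- libraries (SD, n = 4 each). In YFP+ libraries Plxna1 (37.1 ± 6.48 TPM), Plxnb2 (36.9 ± 2.84), Sema3c (33.5 ± 4.93), Nrp2 (27.6 ± 5.67), Plxnd1 (24.8 ± 4.33), Sema4c (22.5 ± 2.86) and Sema3f (18.7 ± 4.14) came next, and neighbours in this order overlapped over libraries. In YFP- libraries Sema3c (39.3 ± 6.86 TPM) ranked second, before Plxnb2 (34.9 ± 3.03), Nrp2 (29.04 ± 7.06) and Plxna1 (28.9 ± 1.88). At the low end, Sema3a, Sema3g, Sema4f, Sema4g and Sema5b averaged under 1 TPM in both fractions. Sema3e, Sema4d and Plxnb3 averaged 0.166, 0.235 and 0.0777 TPM in YFP+ and 3.09, 1.14 and 1.28 TPM in YFP-.

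**Figure D1:**
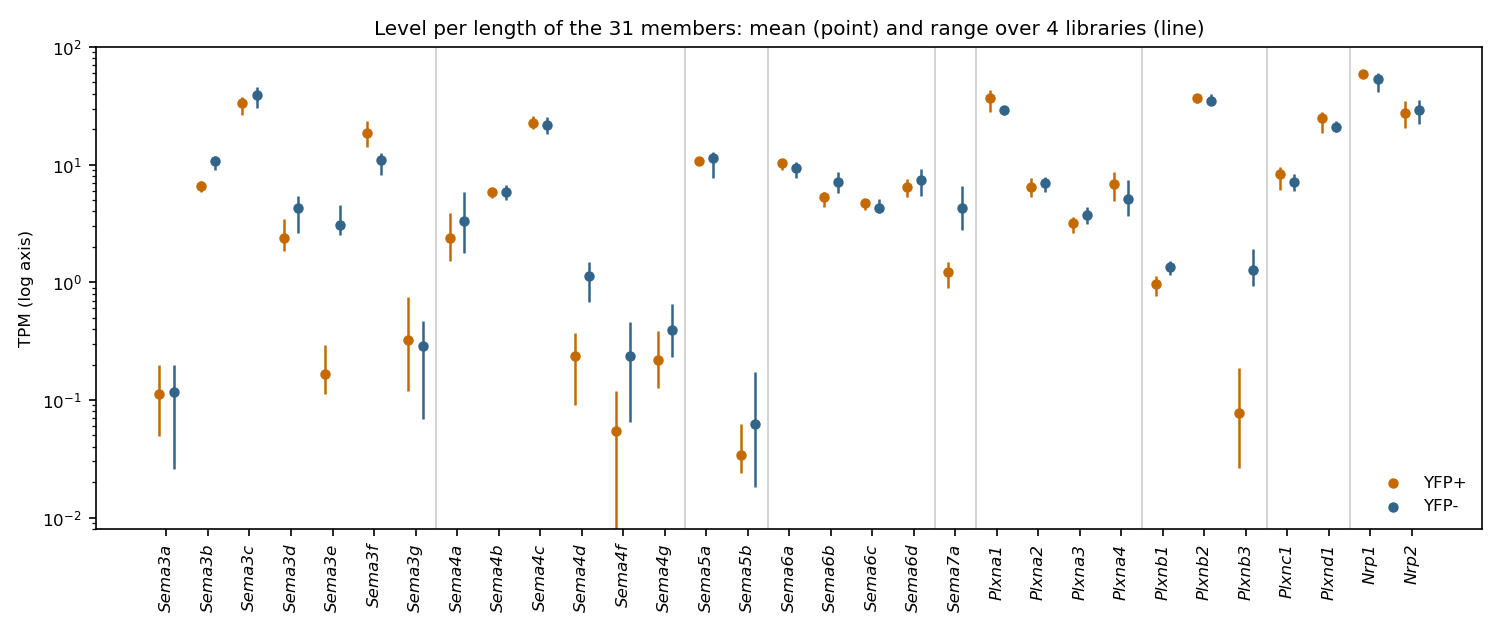
Level per length (TPM, log axis) of the 31 members by class, with YFP+ at the left and YFP- at the right of each pair; points are means and lines run from the lowest to the highest of 4 libraries, down to the axis where a library is at 0. Most members sit at like levels in both fractions, and Sema3e, Sema4d, Sema7a and Plxnb3 stand lower in YFP+.

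In YFP+ cells, of 18 tested semaphorins 7 fell and 1 rose, and of 9 plexins 4 rose and 1 fell; without the pairing 4 semaphorins fell and 1 rose, 1 plexin rose and 1 fell, and the contrast between ligands and receptors was not tested. Nrp1 rose and Nrp2 did not pass. Over the family 14 of 29 tested members passed (6 higher, 8 lower), against 11.5% of all genes tested (3.65% higher, 7.85% lower), and the median log2 fold change was -0.03 against 0.01 for all genes. Where the mean reached 10 CPM, 11 of 22 members passed (6 higher, 5 lower), against 16.2% of all such genes (5.94% higher, 10.2% lower). At least 2-fold changes were all falls, in Sema3e, Plxnb3, Sema4d and Sema7a, where 2.18% of all genes tested changed that far (2.02% fell, 0.153% rose). The groups did not overlap in 7 of the 29, against 9.64% of all genes. Plxnb3 passed the filter through the YFP- libraries alone, so its presence among the tested genes already required a difference. Without the pairing 2 members were higher, Sema3f and Plxna1, and 5 lower, Sema3b, Sema3e, Sema4d, Sema7a and Plxnb3, against 4.26% of all genes (0.917% higher, 3.34% lower). Of the 14 calls 9 held whichever number was left out, and with number 3 left out 3 members were higher.

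**Figure D2:**
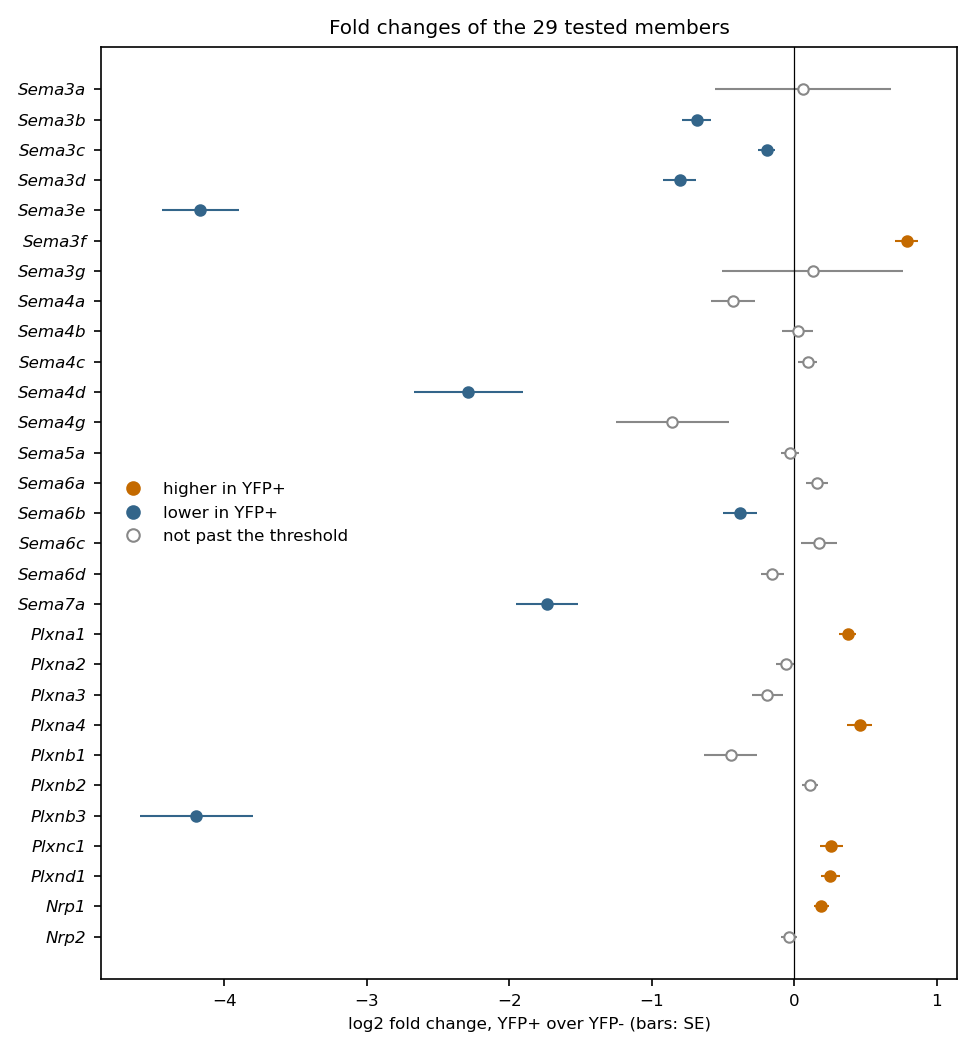
Log2 fold change of YFP+ over YFP- for the 29 tested members, ordered by class, with bars of 1 SE. Filled points passed the threshold (6 higher in YFP+, 8 lower), and the 4 points below -1 are Sema3e, Sema4d, Sema7a and Plxnb3.

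Among the secreted class 3 ligands 4 fell, 1 rose and 2 did not pass. The largest fall was in Sema3e, which binds Plxnd1 without a neuropilin and is known for patterning vessels. Sema3e had 0.894, 0.740, 1.80 and 0.797 CPM in YFP+ replicates 1 to 4, against 18.2, 27.6, 15.4 and 16.6 CPM in YFP- replicates 1 to 4. Every YFP+ library was far below every YFP- library. The log2 fold change was -4.17 with an SE of 0.27 (edgeR adjusted p = 1.07e-07), or 17.97-fold lower, and the fall was seen in 4 of 4 pairs. Sema3e (ENSMUSG00000063531) lies on chromosome 5 of GRCm38 from 14025276 to 14256689 on the plus strand.

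Its promoter is shown with those of Plxnb3 and Sema7a because these 3 genes fell together and each has 1 window in RefSeq's table (GRCm38.p6). Each line gives the 250 bases before the start, read 5′ to 3′ on the plus strand. The windows are chr5:14025026-14025275 for Sema3e, chrX:73756853-73757102 for Plxnb3 and chr9:57939862-57940111 for Sema7a. Capitals mark matches on either strand to ACAAAG, the core bound by SOX factors, or to a loose form of the NF-kB site, GGG and CC with any 5 bases between them, whose matches may overlap each other. RefSeq's start of Plxnb3 lies just inside the annotated gene.
Sema3e: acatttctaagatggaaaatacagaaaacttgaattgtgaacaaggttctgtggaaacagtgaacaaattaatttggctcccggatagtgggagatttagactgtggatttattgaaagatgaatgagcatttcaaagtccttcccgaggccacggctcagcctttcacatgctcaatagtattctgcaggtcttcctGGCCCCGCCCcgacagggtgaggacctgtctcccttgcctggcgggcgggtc
Plxnb3: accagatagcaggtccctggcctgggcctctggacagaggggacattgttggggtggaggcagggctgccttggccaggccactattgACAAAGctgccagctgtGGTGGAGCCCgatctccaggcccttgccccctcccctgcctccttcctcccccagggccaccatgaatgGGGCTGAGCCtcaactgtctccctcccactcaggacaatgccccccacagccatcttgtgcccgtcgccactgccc
Sema7a: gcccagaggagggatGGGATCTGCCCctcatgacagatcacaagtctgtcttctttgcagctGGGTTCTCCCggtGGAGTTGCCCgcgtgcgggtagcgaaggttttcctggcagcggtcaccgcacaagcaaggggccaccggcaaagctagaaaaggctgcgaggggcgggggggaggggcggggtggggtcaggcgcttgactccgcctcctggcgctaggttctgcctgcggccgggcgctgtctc

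The windows differ in composition. Sema3e's holds 48.0% G and C with 7 CpG, Plxnb3's 65.2% with 3 CpG and Sema7a's 66.4% with 17 CpG, where the median of all 32851 windows of that length is 52.4% and 6 CpG. ACAAAG occurs in 5 of 37 member windows (16.5% of all windows) and the loose NF-kB form in 24 of 37 (45.8% of all windows), while TATAAA, the TATA box, occurs in 0 of 37 (12.4% of all windows). Among the 3 printed, Plxnb3's holds 1 match to ACAAAG, and the loose NF-kB form has 1 match in Sema3e's, 2 in Plxnb3's and 4 in Sema7a's. No pattern was tested against the fold changes. The 37 windows belong to 26 members, and the others are Plxna1, Plxna4, Sema3b, Sema3f and Sema6a.

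Sema3f, a ligand of Nrp2 that repels axons and vessels, was the 1 semaphorin that rose. Sema3f had 80.3, 61.8, 70.0 and 55.1 CPM in YFP+, against 46.4, 42.9, 36.0 and 29.9 CPM in YFP-. All YFP+ libraries lay above all YFP- libraries, and the log2 fold change was 0.79 with an SE of 0.08 (edgeR adjusted p = 1.18e-07). Its share of all class 3 RNA per length was 30.2% in YFP+ and 15.9% in YFP-.

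Its nearest member by position moved the other way. Sema3b, a secreted ligand that also binds neuropilins, had 21.3, 24.4, 19.98 and 21.1 CPM in YFP+, against 39.2, 36.9, 34.0 and 29.9 CPM in YFP-. The groups did not overlap (log2 fold change -0.68, SE 0.10, edgeR adjusted p = 2.01e-05). On GRCm38 both genes lie on the minus strand of chromosome 9, Sema3b from 107597674 to 107609229 and Sema3f from 107681500 to 107710475, with 72.3 kb between them.

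Sema3d and Sema3c were also lower. Sema3d, which binds neuropilins and acts in heart and vessel development, had 10.4, 20.8, 12.6 and 13.7 CPM in YFP+, against 17.4, 30.1, 25.5 and 25.8 CPM in YFP-. The groups overlapped, since YFP+ replicate 2 (20.8 CPM) lay above YFP- replicate 1 (17.4 CPM). Each YFP+ library was below its partner (log2 fold change -0.80, SE 0.12, edgeR adjusted p = 1.84e-05). Without the pairing its edgeR adjusted p was 0.0653.

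Sema3c, the most abundant ligand of the family and a ligand of Nrp1, Nrp2 and Plxnd1, had 157, 182, 180.2 and 144 CPM in YFP+, against 167, 203, 199 and 187 CPM in YFP-. These groups overlapped and the difference was small (log2 fold change -0.19, SE 0.06, edgeR adjusted p = 0.0316). The call was lost with number 2, 3 or 4 left out (edgeR adjusted p up to 0.281), without the pairing (0.363) and in DESeq2 (0.0540). Sema3c still held 54.3% of class 3 RNA per length in YFP+ and 57.1% in YFP-.

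Sema3a, the classical growth cone collapsing ligand of Nrp1, and Sema3g were scarce. Sema3a ran from 0.447 to 1.93 CPM in YFP+ libraries and 0.254 to 1.68 CPM in YFP- libraries, and Sema3g from 0.360 to 2.39 CPM in YFP+ libraries and 0.218 to 1.38 CPM in YFP- libraries. Their log2 fold changes were 0.06 (SE 0.62) and 0.13 (SE 0.64), so a 2-fold difference lay within 2 SE. Their pairs split in direction, from -1.29 to 2.37 on the log2 scale for Sema3a and from -1.46 to 2.05 for Sema3g. On chromosome 5, Sema3d, Sema3a, Sema3e and Sema3c follow each other, with gaps of 536 kb, 423 kb and 3318 kb. Summed over the class, the level per length was 49.1 to 67.0 TPM in YFP+ and 58.4 to 78.7 TPM in YFP-, which overlapped.

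**Figure D3:**
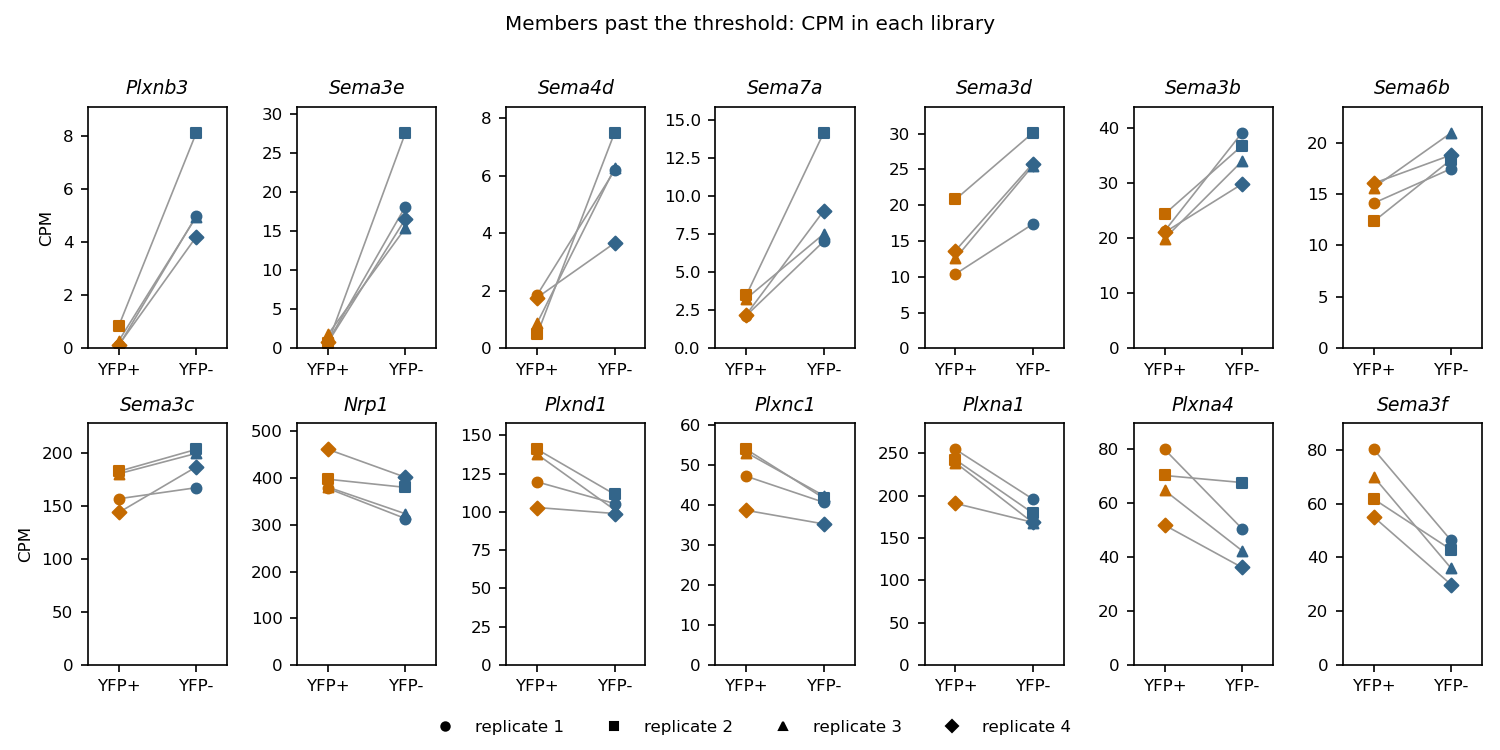
CPM of the 14 members past the threshold in each library (YFP+ left, YFP- right, linear axes from 0), with lines joining libraries of equal number. Plxnb3, Sema3e, Sema4d, Sema7a, Sema3b, Sema6b and Sema3f do not overlap between the groups; the other 7 overlap although all 4 lines run the same way.

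Of the transmembrane class 4 ligands, Sema4d was the 1 of 5 tested that passed. Sema4d, known as CD100 on lymphocytes and a ligand of B-type plexins, had 1.86, 0.493, 0.884 and 1.77 CPM in YFP+, against 6.19, 7.496, 6.26 and 3.66 CPM in YFP-. No YFP+ library reached the lowest YFP- library (log2 fold change -2.29, SE 0.38, edgeR adjusted p = 0.000286). Pair 4 differed least, by -1.05 on the log2 scale, and pair 2 most, by -3.92. Sema4d spans 51685529 to 51793747 of chromosome 13 (minus strand).

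The leading class 4 ligand was Sema4c, which signals through Plxnb2. Sema4c had 78.3, 65.1, 72.3 and 70.3 CPM in YFP+, against 77.5, 54.6, 71.5 and 65.6 CPM in YFP-, and held 72.1% of class 4 RNA per length in YFP+ and 66.2% in YFP-. Its log2 fold change was 0.10 with an SE of 0.07. Sema4b had 23.3, 23.2, 22.5 and 22.2 CPM in YFP+, against 21.6, 20.1, 23.1 and 25.2 CPM in YFP-, with a log2 fold change of 0.02 (SE 0.11). Neither passed, and their groups overlapped throughout.

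Sema4a, which acts on T cells, had 5.40, 9.66, 5.57 and 15.8 CPM in YFP+, against 7.38, 10.7, 8.72 and 22.1 CPM in YFP-. Libraries numbered 4 were the highest of each group, and all 4 pairs were lower in YFP+, but the test did not pass (log2 fold change -0.43, SE 0.15, edgeR adjusted p = 0.0706). Sema4g ran from 0.832 to 2.34 CPM in YFP+ libraries and 1.55 to 3.69 CPM in YFP- libraries (log2 fold change -0.85, SE 0.40, edgeR adjusted p = 0.198). Sema4f, which was not tested, ran from 0 to 0.410 CPM in YFP+ libraries and 0.265 to 1.59 CPM in YFP- libraries.

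Class 5 was in effect Sema5a, a ligand with thrombospondin repeats that guides retinal neurites in mouse. Sema5a had 129, 153, 128 and 146 CPM in YFP+, against 110.4, 154, 139 and 168 CPM in YFP-, and did not pass (log2 fold change -0.03, SE 0.07). Sema5b was at 0.112 to 0.295 CPM in YFP+ and 0.0838 to 0.928 CPM in YFP- and was not tested.

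In class 6, whose members bind A-type plexins, 1 of 4 fell. Sema6b had 14.1, 12.3, 15.6 and 16.04 CPM in YFP+, against 17.5, 18.3, 20.9 and 18.8 CPM in YFP-. Its groups did not overlap (log2 fold change -0.38, SE 0.12, edgeR adjusted p = 0.0356), yet this call was the least firm of the 14. It was lost with each number left out (edgeR adjusted p 0.0657 to 0.175), without the pairing (0.128), without the filter (0.0510) and in DESeq2 (0.0924).

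The other class 6 ligands did not pass. Sema6a, a ligand of Plxna2 and Plxna4, had 59.9, 64.3, 52.9 and 74.7 CPM in YFP+, against 51.6, 60.0, 55.2 and 57.3 CPM in YFP- (log2 fold change 0.16, SE 0.08, edgeR adjusted p = 0.216). Sema6d, a ligand of Plxna1, had 36.5, 56.1, 48.7 and 49.5 CPM in YFP+, against 43.8, 63.7, 55.6 and 48.5 CPM in YFP- (log2 fold change -0.15, SE 0.08, edgeR adjusted p = 0.256). Sema6c had 18.4, 21.5, 20.1 and 18.5 CPM in YFP+, against 18.7, 16.3, 13.9 and 21.3 CPM in YFP- (log2 fold change 0.17, SE 0.13). The groups of all 3 overlapped.

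Sema7a, the GPI-anchored ligand of Plxnc1 and of integrins with the beta 1 chain, fell. Sema7a had 2.16, 3.50, 3.28 and 2.22 CPM in YFP+, against 7.03, 14.2, 7.51 and 9.03 CPM in YFP-. The highest YFP+ library was below the lowest YFP- library (log2 fold change -1.73, SE 0.22, edgeR adjusted p = 2.42e-06), or 3.33-fold lower. Sema7a spans 57940112 to 57962865 of chromosome 9 (plus strand).

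Among the A-type plexins, the signalling partners of neuropilins, 2 rose. Plxna1 had 255, 243, 239 and 191 CPM in YFP+, against 196, 179, 168 and 168 CPM in YFP-. The lowest YFP+ library, number 4, fell below YFP- replicate 1, so the groups overlapped, while all 4 pairs were higher in YFP+ (log2 fold change 0.38, SE 0.06, edgeR adjusted p = 5.11e-05). Plxna4, a receptor for Sema3a and class 6 ligands, had 79.9, 70.2, 64.7 and 51.8 CPM in YFP+, against 50.6, 67.6, 42.4 and 36.2 CPM in YFP-. Pair 2 differed by 0.05 on the log2 scale and the other 3 pairs by 0.52 to 0.66 (log2 fold change 0.46, SE 0.09, edgeR adjusted p = 0.00065, or 0.332 without the pairing).

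The remaining A-type plexins did not pass. Plxna2 had 71.8, 93.6, 76.3 and 68.9 CPM in YFP+, against 77.6, 87.9, 82.3 and 74.2 CPM in YFP- (log2 fold change -0.06, SE 0.07). Plxna3, the usual partner of Nrp2 for Sema3f, had 18.4, 17.5, 18.2 and 15.6 CPM in YFP+, against 20.1, 20.9, 21.2 and 17.3 CPM in YFP- (log2 fold change -0.19, SE 0.11, edgeR adjusted p = 0.336). All 4 pairs of Plxna3 were lower in YFP+, and the groups overlapped.

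The B-type plexins, of which Plxnb1 and Plxnb2 are receptors for class 4 ligands, included the other very large fall. Plxnb3 had 0.112, 0.864, 0.295 and 0.139 CPM in YFP+, which were 3, 21, 9 and 4 counts, against 4.99, 8.12, 4.97 and 4.21 CPM in YFP-. Replicate 2 was the highest of both groups, and no YFP+ library came near the lowest YFP- library (log2 fold change -4.20, SE 0.40, edgeR adjusted p = 2.97e-08), or 18.3-fold lower. Plxnb3 lies on the plus strand of chromosome X from 73757090 to 73772514, with 557 kb between it and Plxna3.

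Plxnb2 made up 97.2% of B-type plexin RNA per length in YFP+ and 93.0% in YFP-. Plxnb2 had 202, 201, 195 and 193 CPM in YFP+, against 197, 169.8, 186 and 180.1 CPM in YFP-, and did not pass (log2 fold change 0.11, SE 0.06, edgeR adjusted p = 0.245). Plxnb1, the high-affinity receptor of Sema4d, ran from 5.54 to 7.65 CPM in YFP+ libraries and 6.82 to 11.1 CPM in YFP- libraries. Its estimate was negative in all 4 pairs but did not pass (log2 fold change -0.44, SE 0.19, edgeR adjusted p = 0.139).

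Plxnd1 and Plxnc1 rose by small amounts. Plxnd1, the receptor of Sema3e, had 119.6, 141, 138 and 103 CPM in YFP+, against 105, 112, 101 and 98.9 CPM in YFP- (log2 fold change 0.25, SE 0.07, edgeR adjusted p = 0.0102). Plxnc1, the receptor of Sema7a, had 47.1, 53.8, 53.0 and 38.6 CPM in YFP+, against 40.6, 41.7, 42.3 and 35.2 CPM in YFP- (log2 fold change 0.26, SE 0.08, edgeR adjusted p = 0.0378). In both genes the libraries numbered 4 were the lowest of each group, and the groups overlapped. Plxnd1 lost its call with number 3 left out (edgeR adjusted p = 0.175) and without the pairing (0.173). Plxnc1 lost it with number 1, 2 or 3 left out (up to 0.174), without the pairing (0.250) and in DESeq2 (0.0522). So the ligands Sema3e and Sema7a fell while their plexins had estimates of the opposite sign; the difference between ligand and receptor was not tested.

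Of the neuropilins Nrp1 rose slightly. Nrp1 had 378, 398, 381 and 462 CPM in YFP+, against 313, 380.1, 324 and 402 CPM in YFP-. The groups overlapped and each YFP+ library was above its partner (log2 fold change 0.19, SE 0.05, edgeR adjusted p = 0.0132). The call was lost with number 1, 3 or 4 left out (edgeR adjusted p up to 0.122) and without the pairing (0.388). Nrp2 had 207, 288, 225 and 185 CPM in YFP+, against 202, 272, 253 and 196 CPM in YFP-. Its pairs split 2 and 2 in direction (log2 fold change -0.03, SE 0.06, edgeR adjusted p = 0.776).

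The authors' deposited table rests on the same counts, so it is no separate test. It gave the same sign for all 29 tested members. For the 14 calls its adjusted p was under 0.05 except for Plxnc1 (0.0522), Sema3c (0.0540) and Sema6b (0.0924).

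Partner genes of the pathway were followed in 3 lists. Of 16 tested receptors and co-receptors other than plexins, 3 rose and 2 fell (31.2%, against 11.5% of all genes tested). Chl1 and L1cam, neural adhesion molecules that act as co-receptors for class 3 ligands, averaged 8.71 ± 2.26 and 0.767 ± 0.477 CPM in YFP+ libraries and 71.8 ± 12.6 and 26.2 ± 9.99 CPM in YFP- libraries (SD, n = 4 each). Their log2 fold changes were -3.05 (edgeR adjusted p = 5.74e-11) and -5.01 (edgeR adjusted p = 0.00153). L1cam reached the filter's cutoff of 0.397 CPM (of unscaled totals) in 3 YFP+ and 4 YFP- libraries, so it needed the YFP- libraries to be tested. Cspg4, a membrane proteoglycan that also marks mural cells, rose (log2 fold change 0.66, edgeR adjusted p = 3.98e-09), as did Itgb1, the beta 1 integrin chain (0.19, edgeR adjusted p = 0.0113), and Ptk7 (0.21, edgeR adjusted p = 0.0163). Itgb1 and Ptk7 each lost the call with 2 of the 4 numbers left out, and without the pairing Cspg4 was the 1 rise. The list's median was -0.06.

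Of 5 VEGF family ligands of neuropilins, Pgf rose and Vegfd fell (40%, against 11.5% of all genes tested). Pgf averaged 27.4 ± 2.48 CPM in YFP+ libraries and 21.3 ± 2.11 CPM in YFP- libraries (SD, n = 4 each; log2 fold change 0.36, edgeR adjusted p = 0.0223). Pgf lost its call with number 1, 2 or 4 left out. Vegfd averaged 13.8 ± 1.92 CPM in YFP+ libraries and 20.1 ± 2.75 CPM in YFP- libraries (SD, n = 4 each; log2 fold change -0.54, edgeR adjusted p = 0.00428), and its call was lost with number 4 left out.

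Of 34 tested genes of the cytoplasmic relay and related partners, 1 rose and 4 fell. This share of 14.7% stands beside 11.5% of all genes tested (3.65% higher, 7.85% lower), and the list's median was -0.01. Pak1, a kinase below Rac, changed by 0.38 on the log2 scale (edgeR adjusted p = 0.0150). The falls with the smallest p were Plxdc2, a plexin domain protein (log2 fold change -0.57, edgeR adjusted p = 2e-08), Rnd3, an atypical small GTPase (-0.50, edgeR adjusted p = 5.52e-07), and Farp2, an exchange factor bound by A-type plexins (-0.39, edgeR adjusted p = 0.00118). Fyn, a kinase of the Src family, was the other call, with a log2 fold change of -0.19. Pak1 lost its call with number 1, 3 or 4 left out.

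Markers of other cells moved with these genes. Of 11 enteric glia genes 10 fell, and their summed level was 115 to 145 CPM in YFP+ and 268 to 344 CPM in YFP-. In YFP+ libraries most of that sum was Gpm6b, at 119 ± 12.1 CPM in YFP+ libraries and 140 ± 8.99 CPM in YFP- libraries (SD, n = 4 each). Without Gpm6b, a choice made after its values were seen, the other 10 summed to 9.16 to 11.8 CPM in YFP+ and 126 to 201 CPM in YFP-. The 9 of them that fell had log2 fold changes from -6.41 to -1.86, with Cdh19 at -4.75, a range that includes those of Sema3e, Plxnb3, Sema4d, Chl1 and L1cam, while Sema7a (-1.73) lay outside it. Of these 9, Foxd3 (5, 0, 0 and 2 counts in the YFP+ libraries), Gfap and Fabp7 reached the filter's cutoff in 0, 2 and 1 YFP+ libraries and passed it through the YFP- libraries. The other 6 ran from -5.42 to -1.86, which takes in the same 5 genes. With Gpm6b (-0.23) the range of the glial falls takes in Sema7a too, along with Sema3b, Sema3d and Sema6b. These members are not particular to the glial range. Falls of crypt-base and adventitial fibroblast genes, from -1.46 (Pi16) to -0.22 (Cd34), also take in Sema3b, Sema3d and Sema6b. The mural cell falls, Mcam (-1.89) and Steap4 (-0.62), lie on either side of Sema7a, Sema3b and Sema3d. None of the 11 glial markers was at 0 in every library. In sorted populations, fewer cells of a type and less RNA per cell cannot be told apart, and the part of glial RNA in the falls of the family was not tested.

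The other lists of neighbouring cell types gave fewer calls; each sum takes in every listed gene. Of 10 epithelial genes 5 fell, Pigr among them (log2 fold change -2.94), while abundant Lgals4 did not pass (-0.20). Their sum was 19.99 to 27.7 CPM in YFP+ libraries and 42.5 to 90.5 CPM in YFP- libraries. The 5 falls ran from -3.94 (Krt20) to -1.91 (Fabp2), a range that also includes Sema4d and Chl1. Krt19, Krt20 and Fabp2 needed the YFP- libraries to pass the filter. Of 6 tested neuronal genes 2 fell (1 without the pairing), with a sum of 6.74 to 9.50 CPM in YFP+ libraries and 7.12 to 25.6 CPM in YFP- libraries. Their most abundant genes, Nos1 (0.15) and Ret (-0.49), did not pass, and Tubb3 was at 0 in every library. Of 7 tested blood endothelial genes 3 fell (1 without the pairing), Tek by 0.76 and Plvap by 0.58 on the log2 scale. Their sum was 44.9 to 58.7 CPM in YFP+ libraries and 63.2 to 95.3 CPM in YFP- libraries. Most of it was Tek, which averaged 27.3 CPM in YFP+ libraries and 46.4 CPM in YFP- libraries. Cdh5 (-0.47), Kdr (-0.35), Flt1 (-0.32) and Vwf (0.30) did not pass.

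In 3 further lists edgeR called 0 genes, of 6 tested for blood cells, 4 for lymphatic endothelium and 1 for mesothelium. At an unadjusted p under 0.05, and likewise at an adjusted p under 0.05 in the authors' deposited table, these counts were 0, 1 (Mmrn1) and 0. Blood cell genes, led by Igha (-0.50) and Jchain (-0.25), summed to 40.3 to 323 CPM in YFP+ libraries and 74.9 to 279.7 CPM in YFP- libraries. Lymphatic genes, with Mmrn1 (-1.78) and Prox1 (0.38) leading, summed to at most 13.3 CPM in YFP+ and 14.2 CPM in YFP- libraries, and mesothelial genes, with Upk3b (-0.50) and the untested Wt1, to at most 1.42 CPM in YFP+ and 2.64 CPM in YFP- libraries.

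Genes of smooth muscle and myofibroblasts mostly rose. Of 8 tested 7 rose (2 without the pairing), with Myh11 at a log2 fold change of 0.86 and Acta2 at 0.78, and their sum was 362 to 878 CPM in YFP+ libraries and 187 to 465 CPM in YFP- libraries. Both libraries numbered 4 had the lowest sum of their group, and YFP+ replicate 4 also had the lowest Plxna1, Plxnc1, Plxnd1, Plxna4 and Sema3f of its group. At the other end the order differed. YFP+ replicate 2 had the highest sum (878 CPM) and the highest Plxnc1 and Plxnd1, but Plxna1, Plxna4 and Sema3f were highest in YFP+ replicate 1. Nrp1, the other member that rose, was highest in replicate 4 of both groups. The part of smooth muscle RNA in the rises of members was not tested. Interstitial cells of Cajal were followed by 4 genes, and 2 rose (1 without the pairing), Gja1 by 0.67 and Etv1 by 0.32. Kit (-1.52) and Ano1 (-0.50) had estimates of the opposite sign and did not pass. The sum was 247 to 362 CPM in YFP+ libraries and 183 to 223 CPM in YFP- libraries. Most of it was Gja1, which averaged 259 CPM in YFP+ libraries and 162 CPM in YFP- libraries. Of 7 mural cell genes 1 rose, which was Cspg4, and 2 fell, while abundant Rgs5 (0.09) did not pass; the sum was 1224 to 1436 CPM in YFP+ libraries and 1107 to 1278 CPM in YFP- libraries.

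Fibroblast lists moved too. Of the 6 defining fibroblast genes 5 fell (2 without the pairing), Col3a1 by 0.23 and Col1a1 by 0.24. Of 10 tested genes of PDGFRa-high subepithelial fibroblasts, 6 rose and 1 fell, with Bmp4 at 0.40 and Sox6, which did not pass, at -0.32. Their sum was 791 to 1184 CPM in YFP+ libraries and 710.4 to 1133 CPM in YFP- libraries, and Foxl1 was at 0 in every library. Of 9 crypt-base and adventitial genes 8 fell, C3 by 0.49 and Grem1 by 0.62, with a sum of 6241 to 7208 CPM in YFP+ libraries and 7868 to 10816 CPM in YFP- libraries. All 8 early-response genes fell (5 without the pairing), Egr1 by 0.36 and Fos by 0.41, with a sum of 6901 to 7522 CPM in YFP+ libraries and 8928 to 10701 CPM in YFP- libraries. The part of these lists in the family's changes was not tested.

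**Figure D4:**
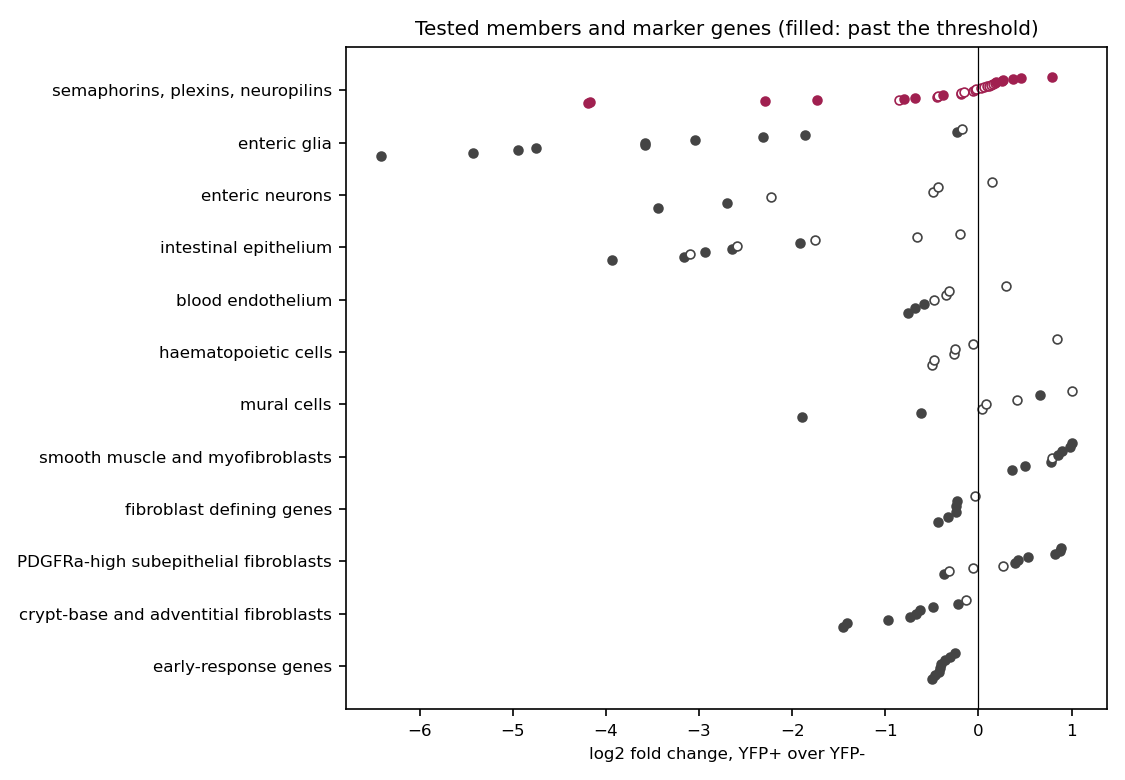
Log2 fold changes of YFP+ over YFP- for the 29 tested members (top row) and for tested genes of 11 marker lists; filled points passed the threshold. Sema3e and Plxnb3 lie within the span of the glial genes, and the members that rose lie below 0.80.

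Of the 31 members 7 share exonic sequence with another annotated gene. The opposite-strand overlaps are 970 bases of Plxna1's 9054 with Gm26811, 334 of Sema4c's 4593 with D430040D24Rik, 257 of Plxnb1's 9592 with Gm7628 and 110 of Plxna4's 14103 with Plxna4os3. Because the strand setting of the counting is not given in the sources used here, reads of such partners may be included. Nrp1, Sema4a and Plxnc1 overlap short same-strand genes by 80, 73 and 115 bases.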

How the data were processed

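For 8 libraries the authors deposited raw, unnormalised counts of each gene. The submitters' processing notes name GRCm38 (mm10) and the tools DESeq2, featureCounts (2.0.1), STAR (2.7.3a) and cutadapt (3.4). The labels' protocols name a strand-specific library kit for very low inputs of total RNA. The authors also deposited log2 fold changes and adjusted p-values, used here only for comparison. The 8 normalised columns that they also gave, each for a single library, were not used.

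The tests used edgeR 4.0.16 under R 4.3.3 (filterByExpr by group, TMM, robust quasi-likelihood F test with replicate numbers as blocks, Benjamini-Hochberg at 0.05). SE is the absolute log2 fold change divided by the square root of F. Of 53801 genes 23010 had no count and 16354 were tested. CPM use TMM-scaled totals. TPM use the union of exons in GENCODE M21, which held 53706 of the gene identifiers, also used for coordinates. Total counts set the precision: Plxnb3, for one, rests on 3 to 21 counts in each YFP+ library.

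Equal replicate numbers were taken as pairs. Deviations from group means correlated over 5258 genes at 0.60, 0.64, 0.38 and 0.57 for equal numbers and from -0.42 to 0.05 otherwise. No label states what a number shares. DESeq2 1.42.0 with the number and the group gave the deposited fold changes to within 0.0005. No libraries were identical, and all pairs within a group differed by more than sampling noise.

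Members, gene lists and tests were chosen with earlier results of these data known. Every member is named, with per-library values where it passed or averaged at least 10 CPM. From each partner list up to 3 calls per direction by smallest p are named, and from each marker list the 2 most abundant genes. Genes outside this rule, chosen after their values were seen, are Fyn, Ptprc, Pecam1, Tubb3, Foxl1, Foxd3, Gfap and Fabp7. Kit, Ano1, Krt19, Krt20, Fabp2, Pi16, Cd34, Mcam, Steap4, Cdh5, Kdr, Flt1 and Vwf were chosen in the same way. Alternatives were other scalings (relative log expression, upper quartile), filters and tools (DESeq2, limma-voom from limma 3.58.1), no block, leaving out each replicate number, and leaving out genes of mitochondrial and ribosomal RNA. The script was tested on simulated data.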

Additional observations from a re-analysis of the deposited data

Results flagged for a closer look

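Of 170 sets of 4 values, 14 held a library far from its group by Dixon's criterion at the 95% level; about 1 in 20 does so by chance, which makes 8.5. Among the members, Sema3e was high in YFP+ replicate 3 (1.80 CPM), and Sema5b was high in YFP+ replicate 3 (0.295 CPM) and in YFP- replicate 1 (0.928 CPM). Among partner genes, Plxdc2 was high in YFP+ replicate 4 (287 CPM), Farp2 was low in YFP+ replicate 2 (38.2 CPM) and L1cam was high in YFP- replicate 2 (41.1 CPM). YFP- replicate 2 was also high for Nos1 (10.8 CPM), Prox1 (3.64 CPM), Sox6 (456 CPM), the summed neuronal markers (25.6 CPM) and the summed subepithelial markers (1133 CPM). YFP- replicate 4 was high for Egr1 (3003 CPM), for the summed early-response genes (10701 CPM) and for its total (28688906 counts).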

How the results depend on the processing

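Without the replicate block, 150 genes were higher and 547 lower in YFP+ over all genes (597 and 1283 with it), 2 and 5 members (6 and 8 with it), and 1 and 6 partner genes (5 and 7 with it). With 1 replicate number left out, the ranges were 331 to 500 higher and 851 to 1126 lower over all genes, 3 to 5 and 6 to 7 members, and 2 to 3 and 6 to 8 partner genes. The lowest counts over all genes came without number 3. Under relative log expression and upper-quartile scaling, limma-voom, the 1 CPM filter and removal of mitochondrial and ribosomal RNA genes, 0 tested members changed their call. DESeq2 lost 3 and the unfiltered test 1. No estimate of a member or gene named by the rule above changed sign where called under the main or the alternative setting. The causes were not tested. Scaling moved the median log2 fold change by less than 0.01. Sema4f and Sema5b had too few counts to be tested.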
